A study of Mus musculus with 6 samples.

Results

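The genes examined were those of the 5 NF-kB subunits, Rel, Rela, Relb, Nfkb1 and Nfkb2, in splenic CD4+ T cell RNA from mice with colitis. They were chosen by symbol, and each of the 5 had 1 row among the 54532 genes of the deposited tables and passed the filter on low counts that left 15138 genes for testing. All mice were wild-type C57BL/6J animals kept under specific pathogen-free conditions, and all received dextran sulfate sodium (DSS), a polysaccharide that injures the colonic epithelium, in their drinking water. One group of 3 libraries came from mice given Akkermansia muciniphila, a mucin-degrading gut bacterium, every day, and the other 3 libraries came from mice given phosphate-buffered saline (PBS) instead. The labels state neither the age and sex of the mice nor the dose and length of DSS treatment, and they leave out how the cells were isolated and whether animals were pooled. The series calls the 3 libraries of a group biological replicates. The design asks how the bacterium changes gene expression in these T cells.

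NF-kB is a family of dimeric transcription factors that share a Rel homology domain, with which they pair and bind DNA. Rela, Rel and Relb carry a transactivation domain, whereas Nfkb1 and Nfkb2 encode the precursors p105 and p100, which are processed to the DNA-binding subunits p50 and p52. In resting T cells IkB proteins hold the dimers in the cytoplasm. Signals from the antigen receptor and CD28 reach them through BCL10, MALT1 and the IKK complex (the canonical route), and signals from certain TNF receptors reach RelB and p100 through the kinase NIK (the non-canonical route). c-Rel, the product of Rel, is enriched in lymphocytes and is known for its part in the induction of Il2 and in the formation of regulatory T cells. The counts are per gene, so p105 cannot be told from p50 nor p100 from p52, and RNA does not report nuclear activity.

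The libraries held 15032257 to 16677923 counts. Their sample descriptions name CD4 in the libraries numbered 1, CD5 in those numbered 2 and CD6 in those numbered 3, while the cell type entry names CD4 in all 6. Cd4 was present in all of them, with 851 to 909 CPM (counts divided by the TMM-scaled library total) with Akkermansia and 660 to 723 CPM with PBS. The 18 B cell markers listed for this work were all higher with Akkermansia (18 of 18 past the threshold), with summed levels of 2173 to 2638 CPM against 1353 to 1406 CPM with PBS. Both CD8 T cell markers were higher too, at a sum of 61.3 to 93.4 CPM against 19.1 to 20.2 CPM. Of 8 NK cell markers 4 were higher and 0 lower (sum 67.4 to 81.7 against 54.0 to 63.7 CPM), and of 7 dendritic cell markers tested 3 were higher and 0 lower (37.1 to 41.7 against 16.6 to 24.4 CPM). Of 6 neutrophil markers tested 1 was called, Camp, and of 11 monocyte and macrophage markers 1 was called, Lyz2. Camp and Lyz2 rose by 3.46 ± 0.49 and 1.11 ± 0.12 (log2, SE). The median log2 fold changes of their lists were 0.78 and 0.07, and the lowest were -0.92 and -0.29. Of 5 plasma cell markers tested 2 were lower and 0 higher, with a median log2 fold change of 0.59. The plasma cell list nevertheless summed to 570 to 733 CPM with Akkermansia against 215 to 353 CPM with PBS. Of 7 erythroid markers 1 was lower and 0 higher, and they summed to 215 to 377 CPM against 426 to 980 CPM. Among all genes tested 7.32% were called higher and 8.28% lower, the background for these marker counts and for the T cell markers below. No test of a marker list against the other genes was run. The part that these other cells play in the values below was not tested, and in bulk RNA fewer cells of a type cannot be told apart from less RNA per cell.

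The promoters of the subunit genes are shown first, since several of these genes are known targets of NF-kB themselves. In the RefSeq table (GRCm38.p6, an older build than that of the counts, so that only these windows carry coordinates) 3 of the 5 subunit genes were found: Rel, Rela and Nfkb2. Each window holds the 250 bases before an annotated start, and Nfkbia, the gene of IkB alpha, is added as an inhibitor gene. Capitals mark matches to the 10-base kappa B consensus on either strand, where overlapping matches run together. Rel lies on chromosome 11 (chr11:23770970-23771219, minus strand), Rela on chromosome 19 (chr19:5637291-5637540, plus strand), Nfkb2 on chromosome 19 (chr19:46304487-46304736, plus strand) and Nfkbia on chromosome 12 (chr12:55492648-55492897, minus strand).
Rel: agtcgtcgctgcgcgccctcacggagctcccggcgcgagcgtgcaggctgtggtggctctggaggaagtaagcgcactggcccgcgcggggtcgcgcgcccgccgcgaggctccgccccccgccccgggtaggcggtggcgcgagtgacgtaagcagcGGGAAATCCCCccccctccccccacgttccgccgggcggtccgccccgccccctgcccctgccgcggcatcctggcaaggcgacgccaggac
Rela: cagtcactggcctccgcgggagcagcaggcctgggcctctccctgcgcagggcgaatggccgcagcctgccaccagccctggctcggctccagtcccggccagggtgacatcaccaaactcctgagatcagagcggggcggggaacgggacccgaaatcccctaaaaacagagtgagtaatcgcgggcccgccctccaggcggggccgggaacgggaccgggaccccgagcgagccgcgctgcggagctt
Nfkb2: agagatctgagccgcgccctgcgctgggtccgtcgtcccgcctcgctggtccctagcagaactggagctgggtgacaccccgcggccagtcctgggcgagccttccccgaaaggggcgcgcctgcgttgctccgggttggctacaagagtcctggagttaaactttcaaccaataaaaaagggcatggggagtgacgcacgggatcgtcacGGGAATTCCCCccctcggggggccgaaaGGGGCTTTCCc
Nfkbia: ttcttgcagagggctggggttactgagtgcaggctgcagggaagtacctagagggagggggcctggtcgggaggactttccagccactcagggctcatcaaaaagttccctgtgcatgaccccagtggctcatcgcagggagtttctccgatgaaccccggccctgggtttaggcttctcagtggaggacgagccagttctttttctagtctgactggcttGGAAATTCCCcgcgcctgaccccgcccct
The Rel window held 2 overlapping matches, GGGAAATCCC and GGAAATCCCC (the latter matches through its reverse complement), which begin 92 and 91 bases before the start. The Nfkb2 window held 3 matches, an overlapping pair that begins 39 and 38 bases before the start and GGGGCTTTCC at 11 bases. Each of the other 2 Nfkb2 windows, at further annotated starts, held 1 match. No match was found in the Rela window, and Nfkbia held 1 match, 29 bases before its start. Further pathway genes scanned, whose windows are not shown, were Tnfaip3, Birc3 and Zc3h12a. Tnfaip3 held 2 matches in its 1st window and 0 in its 2nd, and Birc3 and Zc3h12a held 0. Among 32851 windows of the same length for all genes, 7.25% held at least 1 match and 1.03% held 2 or more match positions, overlapping ones included. A match describes the sequence and was not measured as a binding site here.

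Rel was the single subunit gene whose RNA changed past the threshold: its level with PBS was 1.997 times that with Akkermansia. The Akkermansia libraries held 170, 157 and 170 CPM of Rel, and the PBS libraries held 334, 309 and 349 CPM. The groups were far apart, as the lowest PBS library lay above the highest Akkermansia library by more than the spread within either group. The mean was 166 ± 7.89 CPM in the Akkermansia group and 331 ± 20.4 CPM in the PBS group (SD, n = 3 each). By the edgeR quasi-likelihood test Rel fell by 1.00 ± 0.07 on the log2 scale (SE, 95% interval -1.15 to -0.84, adjusted p = 1.48e-05). Of the 5 subunit genes 1 was called, where 15.6% of all genes tested were called at the same threshold, 8.28% as lower and 7.32% as higher. Rel had the 4th smallest p of the 15138 genes, and among 827 genes with a mean level at least as high as its own, 4 genes including Rel were called lower by a log2 fold change as large. In the 6 fits that each left out 1 library, its log2 fold change lay between -1.04 and -0.96 (adjusted p up to 0.000328).

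**Figure D1:**
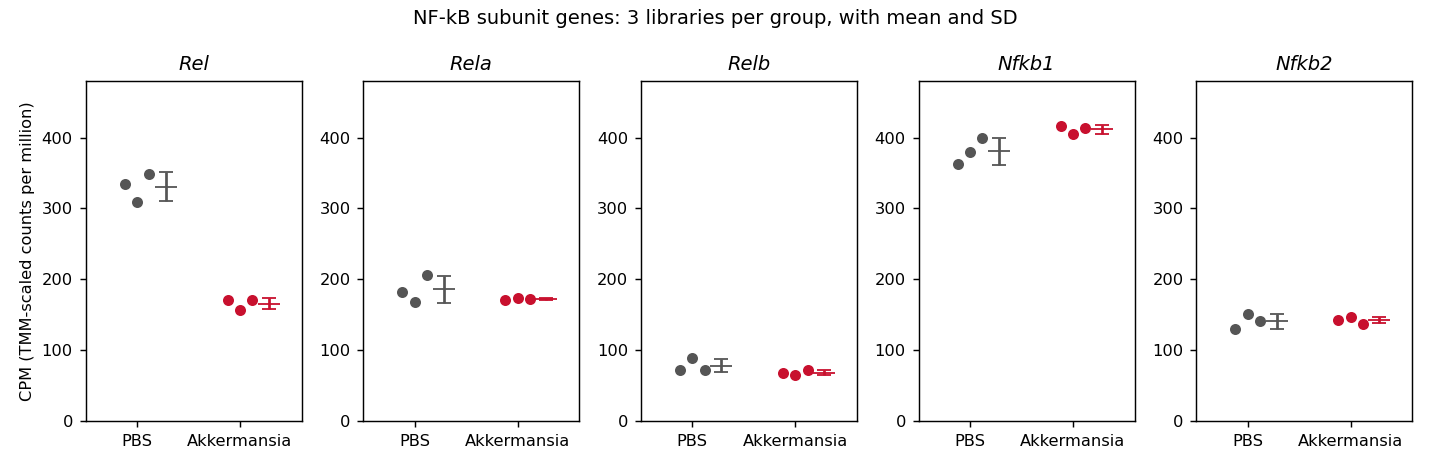
Level of each subunit gene in CPM in the 3 PBS and 3 Akkermansia libraries (points), with the mean and SD of each group (bars). Rel lies between 157 and 170 CPM with Akkermansia and between 309 and 349 CPM with PBS, while the other 4 genes differ far less between the groups.

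Rela encodes p65, the partner of p50 in the classical heterodimer. It had 171, 174 and 173 CPM with Akkermansia and 182, 169 and 207 CPM with PBS. The groups overlapped, since PBS 2 lay below all 3 Akkermansia libraries. The log2 fold change was -0.11 ± 0.08 (SE, 95% interval -0.27 to 0.06, edgeR adjusted p = 0.404). The Akkermansia libraries lay close together (coefficient of variation 0.911%, against 10.4% in the PBS libraries). This was not particular to Rela, as each other subunit gene also varied less among the Akkermansia libraries (for Nfkb1 1.58% against 4.94%). Nor was it particular to the subunit genes. Over all genes, pairs of Akkermansia libraries differed by a chi-square per gene of 4.47 to 6.17, and pairs of PBS libraries by 14.8 to 19.9.

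Relb, the transactivating subunit of the non-canonical route, had 67.7, 64.5 and 71.7 CPM with Akkermansia and 72.3, 88.2 and 72.5 CPM with PBS. All 3 Akkermansia libraries lay below the PBS libraries, but the gap between Akkermansia 3 and PBS 1 was small beside the spread within the PBS group. The log2 fold change was -0.19 ± 0.09 (SE, 95% interval -0.39 to 0.00060, edgeR adjusted p = 0.167). PBS 2 stood above the other PBS libraries, and without it the log2 fold change was -0.09.

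Nfkb1, the gene of p105 and p50, had 417, 405 and 414 CPM with Akkermansia and 362, 380 and 400 CPM with PBS. Here the Akkermansia libraries lay above all 3 PBS libraries, again by a small gap. The log2 fold change was 0.11 ± 0.07 (SE, 95% interval -0.03 to 0.26, edgeR adjusted p = 0.281). Nfkb2, the gene of p100 and p52, had 143, 147 and 137 CPM with Akkermansia and 129, 151 and 142 CPM with PBS. The Akkermansia values lay inside the range of the PBS values, with a log2 fold change of 0.02 ± 0.07 (SE, 95% interval -0.14 to 0.18, edgeR adjusted p = 0.899). Its sign turned without Akkermansia 2 or PBS 1 (down to -0.05). Psd, a gene on the opposite strand that overlaps Nfkb2 in GENCODE M21, had 764 to 1316 counts per library, and reads of the pair cannot be told apart if the counting did not use strand. In all, the groups did not overlap for 3 of the 5 subunit genes, where 34.9% of all genes tested had groups that did not overlap. Rel and Relb were the 2 with lower Akkermansia libraries (17.8% of all genes) and Nfkb1 the 1 with higher ones (17.1%).

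The difference between Rel and the other subunits was tested within each library, as the log2 ratio of counts, which does not depend on how libraries are scaled. The ratio of Rel to Rela was -0.01, -0.15 and -0.02 with Akkermansia and 0.88, 0.87 and 0.76 with PBS, a difference of -0.90 between the group means. Rel counts thus exceeded Rela counts in each PBS library and were slightly below them in each Akkermansia library. Counts grow with gene length, so this order is not one of levels. Per length, Rela lay above Rel in every library (62.3 to 75.4 against 20.9 to 46.3 FPKM, defined below). The ratio of Rel to Nfkb1 differed by -1.11, from -0.20 ± 0.09 with PBS to -1.32 ± 0.05 with Akkermansia (SD, n = 3). The ratio of Rel to Nfkb2 differed by -1.02 (1.24 ± 0.18 to 0.22 ± 0.11), and that of Rel to Relb by -0.81 (2.09 ± 0.25 to 1.29 ± 0.04). In all 4 ratios the groups did not overlap. The exact two-sided permutation test over the 6 libraries gave p = 0.1 for each (0.1 after adjustment over the 4 ratios), which is the smallest p that 3 against 3 allows.

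**Figure D2:**
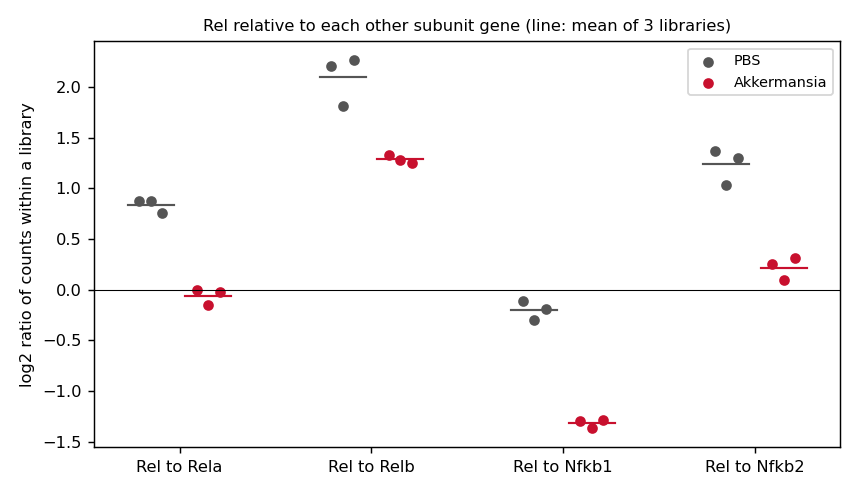
Log2 ratio of Rel counts to the counts of each other subunit gene within a library (points, 3 per group) with the group mean (line). In all 4 comparisons the 3 Akkermansia libraries lie below the 3 PBS libraries, and the differences between the means are -0.90 for Rela, -0.81 for Relb, -1.11 for Nfkb1 and -1.02 for Nfkb2.

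Ratios among the other subunits differed less between the groups, by -0.30 to -0.09 in the 6 ratios among them, for which no test was run. The ratio of Relb to Nfkb1 differed most of these, with -2.601 ± 0.063 in the Akkermansia group and -2.298 ± 0.179 in the PBS group (log2, SD, n = 3), and its groups did not overlap. The ratio of Relb to Nfkb2, the partners of the non-canonical dimer, was -1.07 ± 0.12 with Akkermansia and -0.86 ± 0.10 with PBS, and the groups overlapped. The ratio of Rela to Nfkb1, the partners of the classical dimer, was -1.25 ± 0.04 with Akkermansia and -1.04 ± 0.12 with PBS (log2, SD, n = 3), a difference of -0.21 with groups that did not overlap. The summed CPM of the 4 genes other than Rel was 795 ± 4.60 in the Akkermansia group and 785 ± 37.6 in the PBS group (SD, n = 3). With Rel included, the sum of the 5 genes was 960 ± 12.3 against 1115 ± 47.9 CPM.

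Levels of different genes can be set beside each other only per length, for which the deposited FPKM (fragments scaled by gene length and library total) were used. In PBS libraries Rela was highest with 68.0 ± 6.75 FPKM, followed by Rel with 44.0 ± 2.42, Nfkb2 with 42.5 ± 3.57, Nfkb1 with 31.4 ± 1.597 and Relb with 19.9 ± 2.50 FPKM (SD, n = 3). Rel and Nfkb2 were not parted there, as Rel had 44.3, 41.5 and 46.3 FPKM and Nfkb2 had 38.8, 46.0 and 42.7 FPKM. In Akkermansia libraries the order was Rela (63.7 ± 0.676), Nfkb2 (43.3 ± 1.27), Nfkb1 (34.2 ± 0.586), Rel (22.2 ± 1.10) and Relb (17.5 ± 0.995 FPKM, SD, n = 3). All neighbours in this second order were separated in every library. Rel thus stood 2nd of 5 with PBS and 4th with Akkermansia on the FPKM scale.

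This order depends on the gene lengths behind the FPKM. The counts and FPKM together imply a length of 11.9 to 12.2 kb for Nfkb1, which matches the union of all its annotated exons in GENCODE M21 (12.1 kb) and is 2.93 times its longest transcript with a consensus coding sequence (CCDS, 4.12 kb). For Relb the implied length was 1.76 times that transcript, whereas for Rel (7.37 to 7.57 kb), Rela and Nfkb2 it was 1.00, 1.00 and 1.05 times. With CPM per kilobase of the longest CCDS transcript, a scale chosen after these lengths were seen, Nfkb1 was the highest subunit in both groups, with 100 ± 1.58 with Akkermansia and 92.5 ± 4.56 with PBS (SD, n = 3). On that scale Rel stood 4th with PBS (44.3 ± 2.73, beside 44.8 ± 3.42 for Nfkb2) and was lowest with Akkermansia (22.2 ± 1.06, beside 30.8 ± 1.63 for Relb). The change in Rel between the groups is nearly the same on either scale. The length of a gene cancels within it, and the scales then differ only in how libraries are scaled.

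Expressed as a share of the summed FPKM of the 5 genes, Rel made up 22.4, 20.3 and 21.5% in the PBS libraries and 12.6, 11.7 and 12.6% in the Akkermansia libraries. Nfkb1 made up 15.04, 15.48 and 15.22% with PBS and 19.1, 18.7 and 19.0% with Akkermansia, and Nfkb2 shares did not overlap either, with means of 20.66% with PBS and 23.96% with Akkermansia. The shares of Rela (33.0 ± 2.27 with PBS, 35.2 ± 0.463% with Akkermansia) and Relb (9.68 ± 1.33 and 9.68 ± 0.487%, SD, n = 3) overlapped between the groups. Shares sum to 100%, so that a lower Rel share raises the others even where their levels are alike. The exact two-sided permutation p was 0.1 for Rel, Nfkb1 and Nfkb2, the smallest possible (0.167 after adjustment over the 5 shares), and 0.2 and 1 for Rela and Relb. Per kilobase of the CCDS transcript the Rel share was 15.5 ± 0.899% with PBS and 8.47 ± 0.331% with Akkermansia, and the Nfkb2 shares then overlapped.

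**Figure D3:**
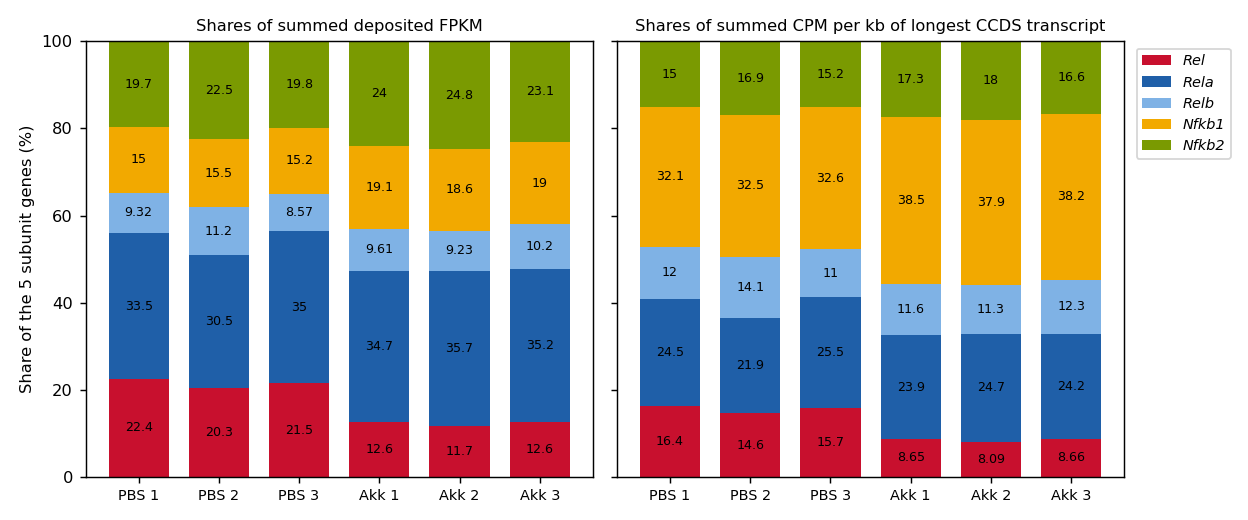
Share of each subunit gene in the sum of the 5 genes in each library, in percent, from deposited FPKM (left) and from CPM per kilobase of the longest CCDS transcript (right); Akk stands for Akkermansia. The Rel share is 11.7 to 12.6% with Akkermansia and 20.3 to 22.4% with PBS on the left, and the length model moves the share of Nfkb1 most.

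Genes whose profile over the 6 libraries was most like that of Rel were sought among 8510 genes with a mean of at least 10 CPM, by the root mean square difference of log2 CPM after each gene was centred on its own mean. The closest was Fbxo33, an F-box protein gene, with a difference of 0.0475, a log2 fold change of -0.96 and means of 118 CPM (Akkermansia) and 229 CPM (PBS). It was followed by Cep57, a centrosomal protein gene (0.0671), Impact, an inhibitor of the stress kinase GCN2 (0.0681), Rlim, a ubiquitin ligase gene (0.0701), and Fem1c, a ubiquitin ligase adaptor gene (0.072). Within a difference of 0.1 there were 12 genes for Rel, but 996 for Rela, 448 for Relb, 1989 for Nfkb1 and 1376 for Nfkb2. The profiles of these other subunit genes vary less over the 6 libraries than that of Rel. The closest to these were Tfpt and Lonp1 (0.0194 and 0.023) for Rela, Ino80c and Mrpl3 (0.0212 and 0.0309) for Relb, Slc30a9 and Atf7ip (0.0175 and 0.0177) for Nfkb1, and Kdelr1 and Dync2h1 (0.019 and 0.0207) for Nfkb2.

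Other genes of the pathway were read from 6 lists with 72 genes, of which 71 were tested, 18 were lower and 9 higher with Akkermansia, and 44 did not pass. The shares called among all genes, 8.28% lower and 7.32% higher (15.6% in all), are the background for these counts and for those of each list and of the immediate early genes below; the lists are small, and no test of a list against the other genes was run. Their median log2 fold change was -0.07, against -0.01 for all genes tested. Of 13 genes for IkB proteins and feedback inhibitors, 8 were lower, 0 higher and 5 did not pass, with a median of -0.49, and these 8 were the most of any of the 6 lists among the 18 lower genes. Nfkbia, which encodes the IkB that retains Rela and Rel dimers, had 295, 300 and 310 CPM with Akkermansia and 582, 470 and 595 CPM with PBS. Its groups did not overlap, although the PBS libraries spread more widely than those of Rel (SD 68.6 against 20.4 CPM), and it fell by 0.86 ± 0.09 (log2, SE, edgeR adjusted p = 7.66e-05).

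Tnfaip3, the gene of the deubiquitinase A20, had 1778, 1460 and 1564 CPM with Akkermansia and 3301, 2611 and 3452 CPM with PBS, a fall of 0.96 ± 0.11. Zc3h12a, an RNase that degrades cytokine and Rel transcripts, had 119, 122 and 116 CPM against 208, 189 and 225 CPM, a fall of 0.80 ± 0.08. Nfkbiz, an atypical nuclear IkB, fell by 0.81 ± 0.09 (log2, SE). The adjusted p by edgeR were 0.000282, 4.4e-05 and 0.000127 in that order. Rel, Tnfaip3, Zc3h12a and Nfkbiz each had all Akkermansia libraries below all PBS libraries, as had 17.8% of all genes tested. Nfkbib, the gene of IkB beta, fell by 0.49 ± 0.08 (adjusted p = 0.0016), and Nfkbie, that of IkB epsilon, had -0.27 ± 0.09 without passing (adjusted p = 0.0529). Nfkbie passed in 5 of 15 alternatives, among them the fits without Akkermansia 1 (0.0446) and without PBS 3 (0.0461).

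The list of the IKK complex and upstream kinases, which also holds adaptor genes such as Tab3, showed falls and rises in equal number. Of 10 genes tested, 2 were lower, 2 higher and 6 did not pass, with a median of -0.06. Ikbkb, the IKK beta catalytic subunit of the canonical route, had 417, 399 and 415 CPM with Akkermansia and 314, 327 and 355 CPM with PBS, a rise of 0.31 ± 0.07 (log2, SE, edgeR adjusted p = 0.0113). Ikbke, an IKK-related kinase, rose by 0.33 ± 0.08 (adjusted p = 0.0141). Map3k8, a kinase that p105 binds, and Tab3, an adaptor of TAK1, fell by 0.51 ± 0.11 and 0.41 ± 0.09 (adjusted p = 0.00703 and 0.00864). Chuk, the IKK alpha gene, and Ikbkg, the NEMO gene, had -0.14 ± 0.07 and -0.07 ± 0.08 and did not pass (adjusted p = 0.173 and 0.616). The call of Ikbkb was lost without Akkermansia 3 (0.0593) and that of Tab3 without Akkermansia 2 (0.0567). That of Ikbke was lost without any 1 of the Akkermansia libraries or without PBS 1 (up to 0.0664). In this list 0 genes thus rose if Akkermansia 3 was left out, and 1 if Akkermansia 1, Akkermansia 2 or PBS 1 was. If Akkermansia 2 was left out, 1 fell.

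Of 8 genes listed as antigen receptor and ubiquitin adaptors, 1 was lower and 1 higher, with a median of -0.07. Bcl10 fell by 0.45 ± 0.08, from 98.1, 85.8 and 103 CPM with PBS to 71.8, 67.1 and 71.1 CPM with Akkermansia (edgeR adjusted p = 0.00287). Bcl10 encodes the protein that assembles with MALT1 into signalling filaments, and its groups did not overlap. Without Akkermansia 2, Akkermansia 3 or PBS 1 the number of genes of this list that rose was 0, and without PBS 2 the number that fell was 2.

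In the non-canonical route 4 of 13 genes were lower, 5 higher and 4 did not pass, with a median of 0.01. The ubiquitin ligase genes Birc3 and Birc2, whose products restrain NIK, fell by 0.63 ± 0.07 and 0.44 ± 0.07 (log2, SE, edgeR adjusted p = 0.000104 and 0.00125). Birc3 had 138, 133 and 125 CPM with Akkermansia and 208, 200 and 206 CPM with PBS. Map3k14, the NIK gene, had 141, 146 and 144 CPM against 104, 106 and 121 CPM, a rise of 0.38 ± 0.07 (adjusted p = 0.00427). Traf3, an adaptor in NIK degradation, had 0.22 ± 0.08 and did not pass (adjusted p = 0.0867), except without PBS 2 (0.0233) and with no filter on low counts (0.0252). The receptor genes Cd27 and Cd40 rose by 0.42 ± 0.07 and 1.45 ± 0.27 (adjusted p = 0.00244 and 0.00363). Cd40 is a receptor of B cells and antigen-presenting cells, was low at 5.90 ± 1.14 CPM against 2.15 ± 0.554 CPM in the PBS group (SD, n = 3), and was higher in the group with higher B cell markers, whose part in this was not tested.

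Of 8 genes for nuclear cofactors and turnover 0 passed the edgeR test, and 0 passed by DESeq2 or limma-voom. The smallest p of the list were those of the acetyltransferase gene Ep300 (0.23 ± 0.09) and Rps3 (-0.17 ± 0.07, log2, SE). Neither passed (edgeR adjusted p = 0.0982 and 0.145), and 1 gene of the list rose without PBS 3 or with no filter on low counts. Of 20 known target genes 19 were tested, with 3 lower, 1 higher, 15 that did not pass and a median of -0.02. Gadd45b, a stress-response gene, had 58.2, 61.3 and 56.0 CPM with Akkermansia and 179, 121 and 173 CPM with PBS, a fall of 1.43 ± 0.14 (log2, SE, edgeR adjusted p = 0.000575). Il2, the T cell growth factor and a c-Rel target, rested on 12, 8 and 10 counts against 39, 18 and 33 counts, a fall of 1.498 ± 0.42 (adjusted p = 0.0298). Irf4, a regulator of effector T cells, fell by 0.28 ± 0.08 (adjusted p = 0.0272), whereas Ltb, the gene of lymphotoxin beta, rose by 0.60 ± 0.08 (adjusted p = 0.000441). Il2 lost its call in fits without any Akkermansia library, PBS 1 or PBS 3 (up to 0.123), as did Irf4 (up to 0.147), which was also not called on log2 FPKM (0.066 at most). The falls then numbered 1 without any Akkermansia library or PBS 1, and 8 with no filter on low counts, where 2 genes rose, as they did without PBS 3, and 3 rose without PBS 2.

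**Figure D4:**
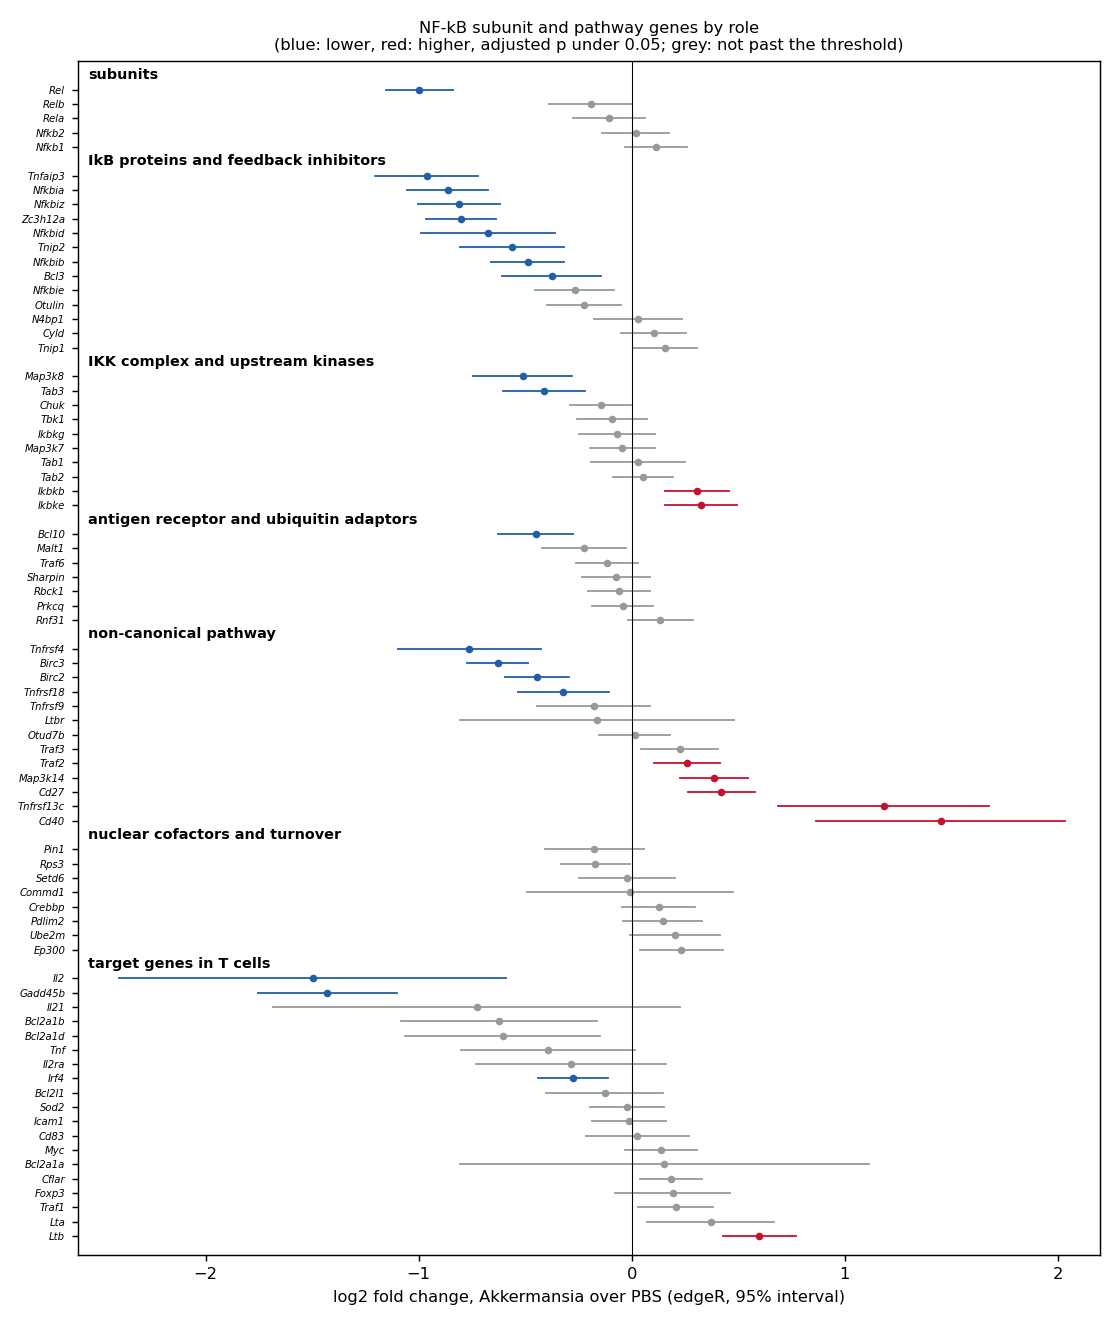
Log2 fold change, Akkermansia over PBS, with its 95% interval from edgeR for the 5 subunit genes and 70 tested pathway genes, grouped by role; colours mark an adjusted p under 0.05. Among subunits Rel alone is coloured, and the IkB and feedback inhibitor list holds 8 lower genes and 0 higher ones.

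Transcripts that respond to stimulation and handling were set beside Rel. Of 20 immediate early genes, 4 were lower, 1 was higher and 15 did not pass, with a median log2 fold change of -0.32. Their summed level was 10623, 7528 and 10689 CPM in PBS 1, 2 and 3, and 8386, 8049 and 7984 CPM with Akkermansia. PBS 2 was thus the lowest of all 6 libraries for this sum, which a few abundant genes such as Junb lead. For Nr4a2, an orphan nuclear receptor gene, the order was another, with 139, 83.9 and 129 CPM in PBS 1, 2 and 3 and 49.8, 45.6 and 29.7 CPM with Akkermansia. The Rel level of PBS 2 was 309 CPM, the lowest among the PBS libraries (334 and 349 CPM in PBS 1 and 3) but above every Akkermansia library. The part of stimulation or handling in the Rel values was not tested. Mitochondrially encoded transcripts took 1.38 to 1.53% of counts with Akkermansia and 1.32 to 1.69% with PBS. Among 13 T cell markers 5 were higher and 1 was lower, the latter being Cd28, the costimulatory receptor gene, which fell by 0.87 ± 0.12 (log2, SE, edgeR adjusted p = 0.00163), from 682, 490 and 612 CPM to 348, 287 and 339 CPM. B cells also express Rel, and their markers had higher Akkermansia groups without overlap for 18 of 18, as did 17.1% of all genes tested. The part of B cells in the Rel values was not tested.

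**Figure D5:**
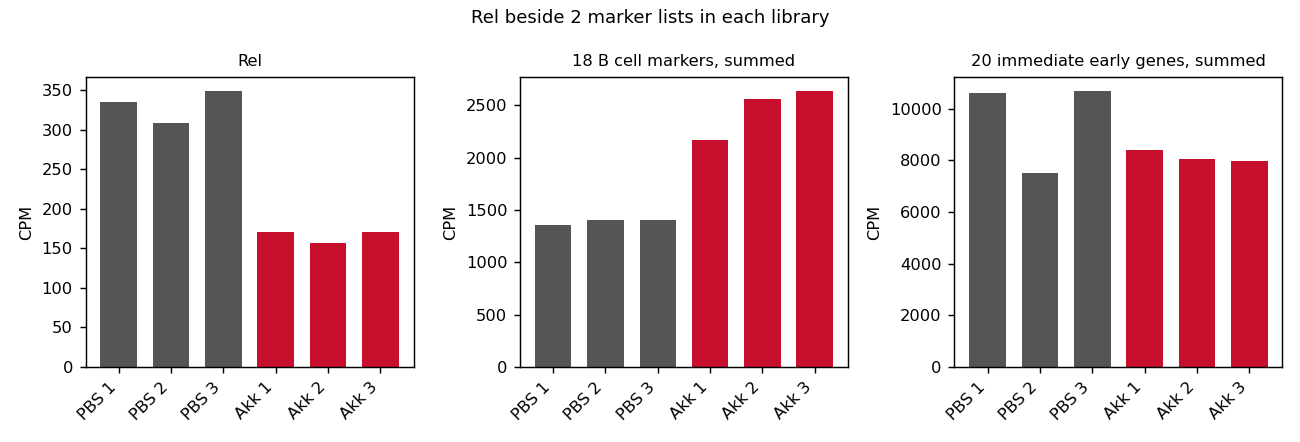
Rel, the summed level of 18 B cell markers and the summed level of 20 immediate early genes in CPM in each library; Akk stands for Akkermansia. Rel is 309 to 349 CPM with PBS and 157 to 170 CPM with Akkermansia, the B cell sum is higher in all 3 Akkermansia libraries, and the immediate early sum of PBS 2 (7528 CPM) lies below those of the Akkermansia libraries. PBS 2 is also the lowest PBS library for Rel (309 CPM).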

How the data were processed

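The authors deposited raw counts per gene and FPKM rounded to 2 decimals for 6 libraries, aligned to GRCm39 per the submitters' processing notes. Libraries used poly(A) selection (per the labels' protocols). Aligner, counting program, annotation and use of strand: not given in the sources used here. Counts were tested as deposited with edgeR 4.0.16 (R 4.3.3): filterByExpr at its defaults (10 counts per library at the median size, 15 in total), TMM scaling, a two-sided quasi-likelihood F test with robust dispersion, Benjamini-Hochberg adjustment over 15138 genes, threshold 0.05, no covariate. SE is the log2 fold change divided by the root of F. Ratios and shares of subunits were tested by exact permutation over libraries. The members and lists were chosen with earlier results of these data known. Named were the subunits, up to 4 called genes of each list with the smallest p, 10 fixed pathway genes (1 of which is counted in its list but not reported here by name), and the 5 genes most like Rel and 2 most like each other subunit; Cd28, Cd4, Psd, Ep300, Rps3, Camp, Lyz2, Junb and Nr4a2 were chosen after their values were seen. The fit was checked on simulated libraries. Alternatives were DESeq2 1.42.0, limma-voom (limma 3.58.1), RLE factors, library totals, other filters, limma on log2(FPKM + 1) or log2(FPKM + 0.1), the replicate number as a block, and leaving out single libraries. A floor of 3 counts is 0.181 to 0.2 CPM. Replicates differed by 4.47 to 6.17 (Akkermansia) and 14.8 to 19.9 (PBS) in chi-square per gene, so none was a repeat. Gene lengths are from GENCODE M21, whose build differs from that of the counts. Figures were drawn with matplotlib.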

Additional observations from a re-analysis of the deposited data

How the results depend on the processing

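The fall of Rel kept its direction and its call in all 15 alternatives, with a log2 fold change between -1.04 and -0.96 and an adjusted p of at most 0.00383, reached on log2(FPKM + 1). Rela, Relb and Nfkb1 kept their direction and did not pass in any of them, and neither did Nfkb2, whose value ran from -0.0473 to 0.0719 in fits without 1 library. With the replicate block Rel had -0.997 (adjusted p = 1.43e-06), and the other 4 subunits kept direction and side of the threshold; in all genes 1333 were then lower and 1205 higher, against 1253 and 1108. The replicate numbers did not show that libraries are paired, since correlations of same-numbered deviations were 0.0846, 0.0774 and 0.0303, although each library correlated best with its own number. The Relb share difference was -0.0035 percentage points and turned with CPM in place of FPKM (0.0918) and within fits without 1 library (-0.558 to 0.733). Without 1 library the calls over all genes ran from 623 to 1413 lower and from 519 to 1287 higher. Counts by role then ran from 0 to 2 higher and 1 to 2 lower for the IKK and kinase list. They ran from 0 to 1 higher and 1 to 2 lower for the adaptor list, and from 0 to 1 higher for nuclear cofactors. For targets they ran from 1 to 3 higher and 1 to 4 lower. The non-canonical route ran from 4 to 6 higher and 3 to 4 lower. IkB proteins and feedback inhibitors ran from 6 to 8 lower with 0 higher, and from 7 to 9 lower with all libraries kept. With no filter on low counts 1 nuclear cofactor gene was higher, and 8 target genes were lower and 2 higher. The cause was not tested. The exact tests of ratios and shares cannot go below 0.1 with 3 libraries a group. Levels per length depend on the length model, as given above.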
